A study of Homo sapiens with 24 samples.

Results

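The genes described here are 10 genes of ferroptosis and iron handling, namely GPX4, SLC7A11, SLC3A2, ACSL3, ACSL4, AIFM2, FTH1, FTL, TFRC, and NCOA4. They were found by their symbols in the deposited read-count table, where all 10 were among the 14493 genes listed. Their values were followed through 24 RNA-seq libraries of SKBR3, a long-established line of human mammary carcinoma cells with amplified HER2, in 8 groups of 3 replicates.

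In 6 groups the cells had been treated with a drug to bring about therapy-induced senescence (TIS), with refeeding on day 3 and collection on day 7. The drugs were ND-646, an inhibitor of acetyl-CoA carboxylase, at 250 nmol/L, TVB-3166, an inhibitor of fatty acid synthase, at 250 nmol/L, bleomycin, which breaks DNA, at 10 μmol/L, alisertib, an Aurora A kinase inhibitor, at 500 nmol/L, doxorubicin, a topoisomerase poison, at 10 nmol/L, and palbociclib (written Palboclib in the labels), a CDK4/6 inhibitor, at 1 μmol/L. The remaining groups were untreated proliferative cells at day 0 and untreated cells at day 7. Each drug was used at 1 dose in 1 cell line, and no group carries an engineered allele. With ND-646 or TVB-3166 at these doses, refreshed on day 3, a minority of SKBR3 cells stained for the senescence marker SA-β-gal in the study. The share was larger with ND-646, and libraries of these groups may mix senescent and other cells. The labels number the replicates without saying whether they came from separate cultures, so p-values measure only the spread between these libraries, which may be technical.

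Libraries held between 29405121 and 44316330 counts, and the lowest count of any of the 10 genes in any library was 494, so the spread between replicates rather than counting error sets the precision. All 7 SKBR3 identity markers (ERBB2, GRB7, KRT8, KRT18, KRT19, EPCAM, and TFAP2C) had values, with summed levels from 17230 to 20200 CPM (the share of a library's counts, scaled up) at day 0 and from 10130 to 17810 CPM in the TIS groups. Of 6 markers of other cells COL1A1, a fibroblast collagen gene, stood at 6.46 to 15.2 CPM in any library, and the other 5 were not found by symbol among the genes listed. ND-646 replicate 1 stood apart from its group in several of the 10 genes and had the lowest normalization factor (0.785). Values without it are therefore given beside many of the ND-646 results that it moved. Levels are CPM with TMM scaling over all 24 libraries, and a change is a log2 fold-change ± SE from edgeR's quasi-likelihood test. A gene is called changed at a Benjamini-Hochberg adjusted p, over all genes tested, under 0.05.

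Ferroptosis is a form of cell death in which polyunsaturated phospholipids are oxidised by iron-dependent reactions. GPX4 reduces the lipid peroxides with glutathione, whose cysteine enters the cell as cystine through the exchanger formed by SLC7A11 and its chaperone SLC3A2, and AIFM2 (also called FSP1) acts in parallel by regenerating reduced coenzyme Q. ACSL4 activates polyunsaturated fatty acids for entry into phospholipids, whereas ACSL3 activates monounsaturated ones. TFRC, the transferrin receptor, imports iron, ferritin built from the FTH1 and FTL subunits stores it, and NCOA4 delivers ferritin to lysosomes for iron release.

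The FTH1, FTL, and TFRC transcripts carry iron-responsive elements, hairpins bound by the iron regulatory proteins encoded by ACO1 and IREB2. As background, that binding blocks the translation of ferritin and protects the TFRC transcript from decay when iron is scarce. The hairpins are shown because these 3 transcripts moved in opposite directions in the data below. They were found in the GENCODE canonical transcripts on GRCh37 as the loop CAGTGN, in capitals below, with 5 bases on either side that can pair (G with T allowed) and a C before them. The 5′UTR elements of FTH1 (exon 1, chr11:61735045-61735074, minus strand) and FTL (exon 1, chr19:49468592-49468621, plus strand) read 5′ to 3′ as follows.
FTH1: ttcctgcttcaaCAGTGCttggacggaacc
FTL: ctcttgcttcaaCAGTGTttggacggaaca
This rule, which would miss elements of another form, found 4 in the 3′UTR of TFRC. They lie in exon 19, on the minus strand, at chr3:195777849-195777878, chr3:195777445-195777474, chr3:195777380-195777409, and chr3:195777333-195777362, in this order.
TFRC 1: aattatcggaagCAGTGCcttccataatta
TFRC 2: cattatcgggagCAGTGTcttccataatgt
TFRC 3: ctgtatcggagaCAGTGAtctccatatgtt
TFRC 4: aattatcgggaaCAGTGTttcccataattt
Of 19553 transcripts searched on their own strand, 18 (0.0921%) held a match in the 5′UTR and 121 (0.619%) held one in the 3′UTR. TFRC was the only transcript with 3 or more matches in the 3′UTR. A match is a description of the sequence, and neither protein binding nor translation was measured in these files.

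Per length of the canonical transcript, the iron genes were among the more abundant of the 10 in untreated day-0 cells. FTH1 stood at 621 ± 97.6 RPKM (CPM per kilobase; SD, n = 3), TFRC at 587 ± 60.8 RPKM, and SLC3A2 at 466 ± 140 RPKM. GPX4 stood at 145 ± 13.1 RPKM and FTL at 132 ± 17.9 RPKM, and the lowest were AIFM2 (6.62 ± 0.807 RPKM), ACSL4 (3.57 ± 0.874 RPKM), and SLC7A11 (2.16 ± 0.496 RPKM). SLC7A11 was thus the scarcer transcript of the exchanger, and the SLC3A2 level per length was 215.5 ± 36.6 times that of SLC7A11 at day 0.

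Against day 0, FTH1 rose in all 6 TIS groups and FTL in 5 of them, and TFRC, the transferrin receptor, fell in 4. FTH1, the ferritin heavy chain (chr11:61727190-61735106 on GRCh37), was measured at 851, 769.5, and 619.6 CPM in the day-0 libraries and at 765, 1137, and 793.4 CPM in the untreated day-7 libraries. The ND-646 libraries held 10140, 6129, and 5036 CPM of FTH1. TVB-3166 cells gave 3056, 3637, and 3281 CPM and bleomycin cells 3365, 6231, and 3881 CPM. All 9 of these libraries lay above every untreated library. Alisertib cells gave 1348, 2155, and 1488 CPM of FTH1, and doxorubicin cells 1842, 2520, and 1607 CPM. Palbociclib cells had the lowest FTH1 of the TIS groups, at 1096, 1694, and 999.5 CPM, the range of which overlapped that of untreated day-7 cells but not that of day-0 cells.

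Against day 0, FTH1 rose by 3.23 ± 0.31 on the log2 scale in ND-646 cells (9.40-fold, adjusted p = 0.000114), by 2.60 ± 0.25 in bleomycin cells (adjusted p = 7.12e-05), and by 2.16 ± 0.15 in TVB-3166 cells (adjusted p = 1.06e-06). The rise was 1.43 ± 0.18 in doxorubicin cells, 1.16 ± 0.18 in alisertib cells, and 0.75 ± 0.19 in palbociclib cells (adjusted p = 0.007). FTH1 was called in all 6 groups, also with any 1 library left out. Without ND-646 replicate 1 its rise was 2.90. In the order of group means (ND-646, bleomycin, TVB-3166, doxorubicin, alisertib, palbociclib, day 7, day 0), only TVB-3166 and doxorubicin differed as neighbours in the fit of all 24 libraries (adjusted p = 0.04), while 21 of the 28 pairs of groups differed. FTH1 shares sequence with 25 annotated processed pseudogenes. The 9 of them in the table held 0.231% to 0.377% of the summed counts. Adding so few counts could hardly move a value, and it changed no call for FTH1 in the 15 comparisons. The other pseudogenes were not covered, and how reads shared between FTH1 and its pseudogenes were counted is not known here.

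FTL, the ferritin light chain (chr19:49468566-49470136), rose together with FTH1 but less. Its day-0 libraries held 111.3, 131.6, and 100.9 CPM, and its ND-646 libraries 737.8, 426.7, and 383.8 CPM. TVB-3166 cells gave 350.6, 336.1, and 311.1 CPM, and bleomycin cells 273.3, 389, and 256.8 CPM. None of these 9 libraries overlapped the untreated ones, which reached 156.5 CPM at day 7. FTL rose by 2.15 ± 0.26 (log2) in ND-646 cells (adjusted p = 0.000357), 1.82 without replicate 1, by 1.54 ± 0.11 in TVB-3166 cells, and by 1.42 ± 0.18 in bleomycin cells. Palbociclib cells held 185.4, 219.6, and 166.5 CPM of FTL, which overlapped doxorubicin cells, with a rise of 0.73 ± 0.12 (adjusted p = 0.000659). Doxorubicin cells (147.2, 179, and 125.8 CPM) overlapped day 0, with a change of 0.41 ± 0.14 that was called (adjusted p = 0.0357) and lost without any 1 of 4 libraries (0.26 without doxorubicin replicate 2). Alisertib cells stood at 126.5, 149.5, and 123.7 CPM, with a change of 0.22 ± 0.12 that was not called (adjusted p = 0.165).

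The ferritin subunits did not move in a fixed ratio. Per length, FTH1 exceeded FTL 4.74 ± 0.697 times at day 0, 4.91 ± 0.305 times at day 7, and 4.74 ± 0.735 times in palbociclib cells. The ratio was 9.95 ± 0.45 in ND-646 cells, 10.5 ± 1.40 in bleomycin cells, 9.50 ± 0.606 in doxorubicin cells, 8.95 ± 1.38 in alisertib cells, and 7.26 ± 0.829 in TVB-3166 cells (SD, n = 3). The libraries of those 5 groups lay between 6.31 and 11.6, above every untreated and palbociclib library, of which the highest was 5.58.

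TFRC (chr3:195739382-195809024) moved the other way. Its levels were 2695, 2843, and 3281 CPM at day 0 and 3012, 2796, and 2934 CPM at day 7. ND-646 cells held 1324, 1478, and 1623 CPM and TVB-3166 cells 1801, 1657, and 1767 CPM, all below every untreated library. TFRC fell by 1.01 ± 0.19 on the log2 scale in ND-646 cells (0.498-fold, adjusted p = 0.00386) and by 0.75 ± 0.12 in TVB-3166 cells (adjusted p = 0.000367). In bleomycin cells replicate 2 was lower (1270 CPM) than the other libraries (2265 and 2040 CPM), and TFRC fell by 0.66 ± 0.21 (adjusted p = 0.0243), by 0.45 without that library. Palbociclib cells (2266, 1846, and 2376 CPM) showed a fall of 0.44 ± 0.14 (adjusted p = 0.0199). The bleomycin and palbociclib calls were each lost in 3 of 6 fits that left out 1 library. Alisertib cells (2730, 2114, and 2510 CPM) and doxorubicin cells (2249, 2115, and 2545 CPM) had log2 values of -0.26 ± 0.13 and -0.34 ± 0.13 that were not called (adjusted p = 0.124 and 0.0584), and doxorubicin cells did not overlap day 0. These are edgeR values. DESeq2 called TFRC lower in doxorubicin cells (adjusted p = 0.00818), as did edgeR without day-0 replicate 1 (-0.41, adjusted p = 0.0167), and without that library edgeR also called it in alisertib cells (-0.31, adjusted p = 0.0486). Per length, the FTH1 level was 1.08 ± 0.268 times that of TFRC at day 0, 20.7 ± 9.94 times in ND-646 cells, and 2.53 ± 1.13 times in palbociclib cells. The ND-646 libraries were uneven in this ratio, at 12.9, 17.3, and 31.9 from lowest to highest.

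**Figure D1:**
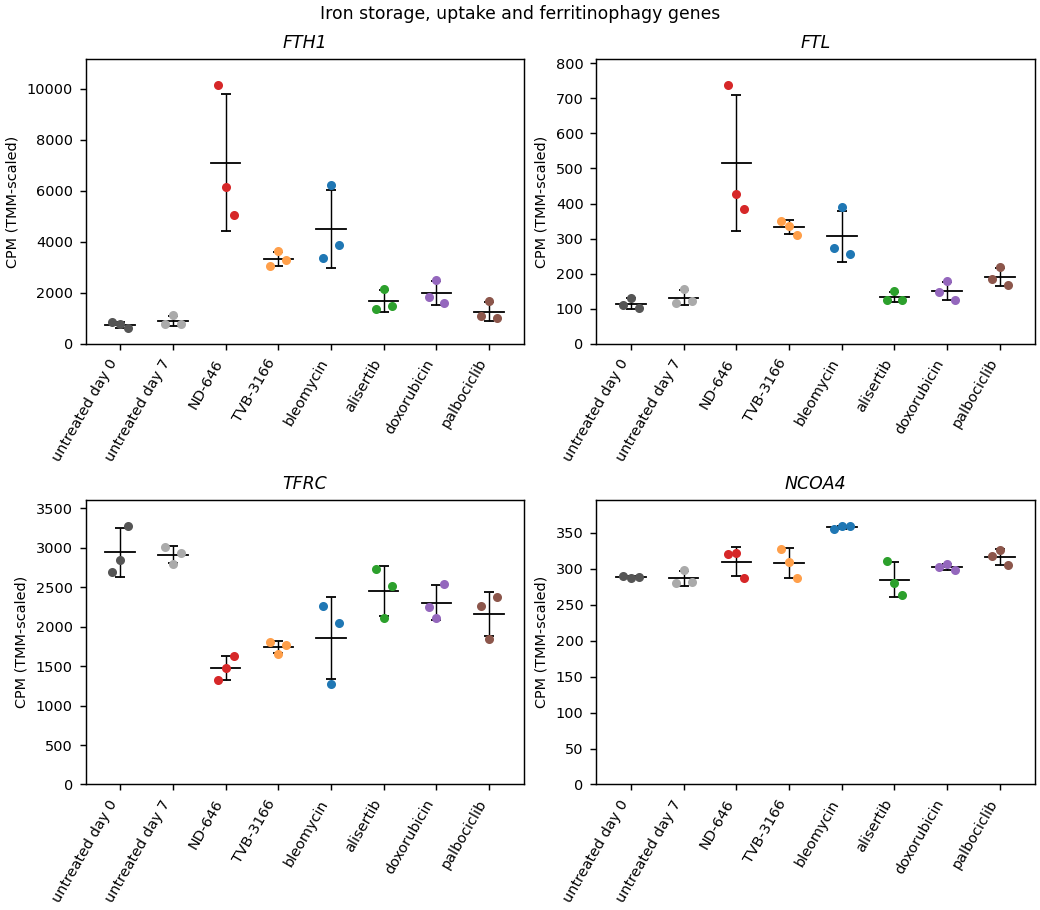
Levels of FTH1, FTL, TFRC, and NCOA4 in CPM (linear axes from 0) in the 8 groups; points are libraries in the order of replicates 1 to 3, and bars the mean ± SD of 3. FTH1 runs from 619.6 CPM at day 0 to 10140 CPM in ND-646 cells while TFRC runs from 3281 to 1270 CPM, and NCOA4 moves little.

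The opposite movement of FTH1 and TFRC also held among the 3 libraries inside each group, a pattern noticed after the values were seen. In 8 of 8 groups the order of the libraries by TFRC was the exact reverse of their order by FTH1, and TFRC was the only 1 of 14078 genes (0.0071%) of which this was true. The library with the most FTH1 had the least TFRC in every group, which was true of 35 genes (0.249%), TFRC included. The library with the most FTH1 was replicate 2 in all groups but day 0 and ND-646, in which it was replicate 1. After the group means were removed, Pearson's r with FTH1 over the 24 libraries was -0.88 for TFRC, 0.90 for FTL, 0.70 for GPX4, and 0.29 for NCOA4, as a description over libraries that share groups. Of all genes, 0.0639% had a lower r than TFRC, 99.9% a lower r than FTL, and 97.1% a lower r than GPX4. The canonical transcripts of FTH1, FTL, and GPX4 (1203, 871, and 851 bases) are shorter than that of TFRC (5012 bases). ACSL3, at 5577 bases, had an r of 0.39. Whether transcript length or RNA quality bears on these values was not tested. Across all libraries with the groups included, r was 0.92 between FTH1 and FTL, -0.93 between FTH1 and TFRC, and -0.93 between FTL and TFRC. The genes with profiles most like FTH1, by r of log2 CPM over 24 libraries, were its own pseudogenes FTH1P8 (0.98) and FTH1P2 (0.97) and TLCD2 (0.97), and those most like TFRC were MMP16, LARS2, and RNGTT (0.96 for each).

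**Figure D2:**
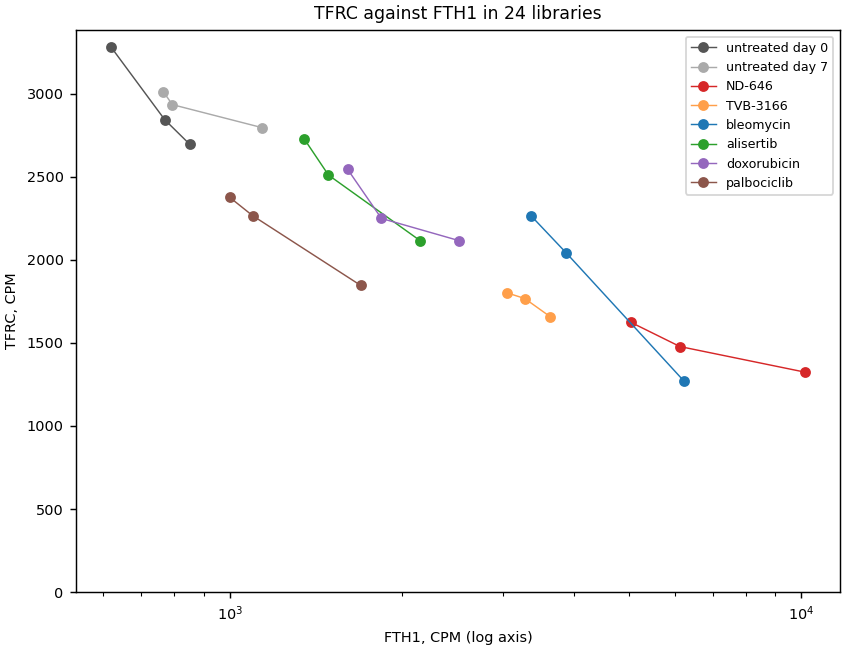
TFRC (CPM, linear axis from 0) against FTH1 (CPM, log axis) in the 24 libraries, with lines joining the 3 libraries of a group in the order of their FTH1. All 8 lines run downwards from left to right, from 3281 CPM of TFRC in the day-0 library with the least FTH1 to 1270 CPM in bleomycin replicate 2.

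NCOA4, the receptor that takes ferritin to the lysosome (chr10:51565199-51590734), was the steadiest of the 10 genes, with a 1.26-fold span between group means. Its day-0 libraries gave 290.1, 286.3, and 288.8 CPM and its bleomycin libraries 355, 359, and 358.7 CPM. Bleomycin was the only group in which NCOA4 was called, with a rise of 0.32 ± 0.09 (adjusted p = 0.019) that was lost in 3 of 6 fits without 1 library, at values of 0.31 and 0.32. The other 5 TIS groups ranged from 263.2 to 327.9 CPM, with adjusted p-values from 0.217 in palbociclib cells to 0.877 in alisertib cells.

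The cystine importer SLC7A11 (chr4:139085251-139163503) rose in all 6 TIS groups against day 0. Its level was 25.5, 15.95, and 21.15 CPM at day 0 and 27.14, 48.5, and 32.21 CPM at day 7. ND-646 cells held 125.5, 130.7, and 172.2 CPM, TVB-3166 cells 96.68, 80.73, and 90.2 CPM, and bleomycin cells 81.54, 102.2, and 82.11 CPM. These 3 groups were clear of all untreated libraries. Doxorubicin cells gave 58.75, 43.71, and 67.7 CPM, palbociclib cells 45.69, 56.89, and 48.86 CPM, and alisertib cells 35.83, 31.14, and 31.22 CPM. The libraries of these 3 groups all exceeded day 0, and each group overlapped day 7. SLC7A11 rose by 2.76 ± 0.22 on the log2 scale in ND-646 cells (6.79-fold, adjusted p = 4.48e-05), 4.28-fold in TVB-3166 cells (adjusted p = 1.77e-06), by 2.09 ± 0.17 in bleomycin cells (adjusted p = 4.09e-05), and by 0.65 ± 0.15 in alisertib cells (adjusted p = 0.00844). The rises in doxorubicin and palbociclib cells were 1.45 ± 0.19 and 1.27 ± 0.16. All 6 calls held with any 1 library left out. Untreated day-7 cells, clear of day 0, had a value of 0.79 ± 0.22 (1.73-fold) that edgeR did not call (adjusted p = 0.09) and that DESeq2 (adjusted p = 0.0052) and the fit of all 24 libraries (adjusted p = 0.0336) did. In the order of its group means, the fit of all 24 libraries put ND-646 above TVB-3166 (adjusted p = 0.0304, but 0.0988 in the fit of these 2 groups) and bleomycin above doxorubicin (adjusted p = 0.0266), whereas TVB-3166 and bleomycin did not differ beyond their spread (adjusted p = 0.977). The most similar profiles were those of CNST, CLCN3, and ERN1 (r of 0.96, 0.95, and 0.94 over 24 libraries).

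SLC3A2, the partner of SLC7A11 (chr11:62623476-62656352), changed less and was called in 0 of 6 TIS groups against day 0 by edgeR, in 1 at a raw p under 0.05, and in 1 by DESeq2. The day-0 libraries were uneven, with 1183 CPM in replicate 1 and 734.8 and 715.8 CPM in the others. ND-646 cells held 2110, 1203, and 1229 CPM, all above day 0, with a change of 0.77 ± 0.29 (adjusted p = 0.0627). Without day-0 replicate 1 that value was 1.04 and was called (adjusted p = 0.0335), and without ND-646 replicate 1 it was 0.46. Bleomycin cells (1165, 1206, and 998.1 CPM) and doxorubicin cells (1266, 989.5, and 1096 CPM) overlapped day 0, with values of 0.36 ± 0.19 in each. Without day-0 replicate 1 both became 0.63 and were called (adjusted p = 0.00436 and 0.00157), and the alisertib value moved from 0.01 to 0.30 (adjusted p = 0.021). The TVB-3166 value was -0.02 ± 0.18, and it was 0.26 without day-0 replicate 1 (adjusted p = 0.0417). The ratio of SLC3A2 to SLC7A11 per length fell from 173 to 237.5 in the day-0 libraries to 36.5 to 86 in ND-646 cells and 46.7 to 51.8 in TVB-3166 cells.

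GPX4, the lipid peroxide reductase (chr19:1103981-1106790), fell in alisertib, doxorubicin, and palbociclib cells and was not called in the other 3. The day-0 libraries held 130.8, 129.2, and 110.7 CPM and the day-7 libraries 135.9, 104.7, and 111.3 CPM. Alisertib cells gave 83.83, 90.38, and 75.97 CPM, doxorubicin cells 75.34, 84.56, and 58.96 CPM, and palbociclib cells 69.79, 94.39, and 66.77 CPM. All 9 libraries were below every untreated one. GPX4 fell by 0.57 ± 0.10 (log2) in alisertib cells (adjusted p = 0.00205), by 0.75 ± 0.13 in doxorubicin cells (adjusted p = 0.00128), and by 0.69 ± 0.13 in palbociclib cells (adjusted p = 0.00129), and these calls held with any 1 library left out. TVB-3166 cells (121.2, 108, and 112.2 CPM) and bleomycin cells (123.1, 139.5, and 108.6 CPM) overlapped both untreated groups, with changes of -0.11 (95% interval -0.31 to 0.08) and 0.01 (-0.23 to 0.25). ND-646 replicate 1 held 229 CPM against 122.7 and 114.4 CPM in the others, and the change of 0.31 ± 0.25 (adjusted p = 0.353) became -0.07 without it. No neighbours in the order of the GPX4 means differed, although 13 of the 28 pairs of groups did. CHMP2A, STX8, and DYNLRB1 had the profiles most like it (r of 0.95, 0.94, and 0.94 over 24 libraries).

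AIFM2, the coenzyme Q reductase that acts beside GPX4 (chr10:71857979-71892690), rose in 3 groups. It was measured at 19.83, 23.59, and 18.78 CPM at day 0, at 41.38, 31.04, and 32.54 CPM in ND-646 cells, and at 31.62, 35.41, and 34.77 CPM in doxorubicin cells. Neither drug group overlapped day 0. AIFM2 rose by 0.74 ± 0.17 in ND-646 cells (adjusted p = 0.00889), by 0.72 ± 0.12 in doxorubicin cells (adjusted p = 0.000763), and by 0.48 ± 0.16 in bleomycin cells (24.1, 29.13, and 33.48 CPM, adjusted p = 0.0268). The bleomycin call was lost in 4 of 6 fits without 1 library (0.37 without bleomycin replicate 3). Without ND-646 replicate 1 the AIFM2 rise in ND-646 cells was 0.61. TVB-3166 cells, at 19.47, 20.12, and 19.76 CPM, overlapped day 0 with a change of -0.06 ± 0.12. Palbociclib cells had the lowest AIFM2, at 17.73, 17.02, and 16.54 CPM, with a value of -0.28 ± 0.12 that was not called (adjusted p = 0.0736). Bleomycin and alisertib, which stood next to each other in the order of its means, differed in the fit of all 24 libraries (adjusted p = 0.0249).

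The acyl-CoA synthetases followed different groups. ACSL3 (chr2:223725660-223809357) was highest in the cells given inhibitors of fatty acid synthesis. Its day-0 libraries gave 275.8, 251.8, and 303.5 CPM, its ND-646 libraries 507.1, 521.7, and 531.6 CPM, and its TVB-3166 libraries 404.1, 420.5, and 417.3 CPM. All other libraries lay between 251.8 and 391.6 CPM, below these 6. ACSL3 rose by 0.90 ± 0.15 in ND-646 cells (1.86-fold, adjusted p = 0.00181) and by 0.58 ± 0.10 in TVB-3166 cells (adjusted p = 0.000509). The ND-646 and TVB-3166 means differed when all libraries shared 1 estimate of spread (adjusted p = 0.0484), but not in the fit of these 2 groups (adjusted p = 0.238). The rises of 0.38 ± 0.11 in palbociclib cells (adjusted p = 0.0146) and 0.29 ± 0.10 in doxorubicin cells (adjusted p = 0.0316) were called. They were lost in 3 and 4 of 6 fits without 1 library, at values from 0.22 to 0.35. Bleomycin (0.27 ± 0.13) and alisertib (0.26 ± 0.09) were not called by edgeR in the fits of 2 groups (adjusted p = 0.122 and 0.0507). The fit of all 24 libraries called ACSL3 in bleomycin cells (adjusted p = 0.0365). In alisertib cells it was called by DESeq2 (adjusted p = 0.0227), by edgeR with either other scaling or either other filter (adjusted p from 0.0175 to 0.0464), and with the replicate block.

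ACSL4 (chrX:108867473-108976632) rose in all 6 TIS groups against day 0, but it also rose in untreated cells by day 7. It stood at 12.56, 19.59, and 20.29 CPM at day 0 and at 29.7, 40.33, and 37.76 CPM at day 7, a rise of 1.05 ± 0.19 (adjusted p = 0.0474). This call was lost in 5 of 6 fits without 1 library, at values from 0.95 to 1.16. Palbociclib cells had the most ACSL4 (42.44, 39.02, and 42.22 CPM), with a rise of 1.24 ± 0.17 (adjusted p = 0.000151), and ND-646 cells the least of the TIS groups (24.8, 28.63, and 26.4 CPM), with a rise of 0.60 ± 0.21 (adjusted p = 0.0478). The ND-646 call was lost in 5 of 6 fits without 1 library, with 0.40 without day-0 replicate 1. TVB-3166, bleomycin, alisertib, and doxorubicin cells ranged from 27.55 to 34.98 CPM, with rises of 0.81 to 0.92. Against day 7, 0 of 6 TIS groups were called for ACSL4 by edgeR, 1 at a raw p under 0.05, and 1 by DESeq2. The ND-646 value was -0.44 ± 0.16 (adjusted p = 0.0584), which was called without day-7 replicate 1 (-0.56) or ND-646 replicate 1 (-0.39). Per length, ACSL3 exceeded ACSL4 17.2 ± 1.06 times in ND-646 cells and 7.69 ± 1.14 times in palbociclib cells, and 14.5 ± 4.18 times at day 0.

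**Figure D3:**
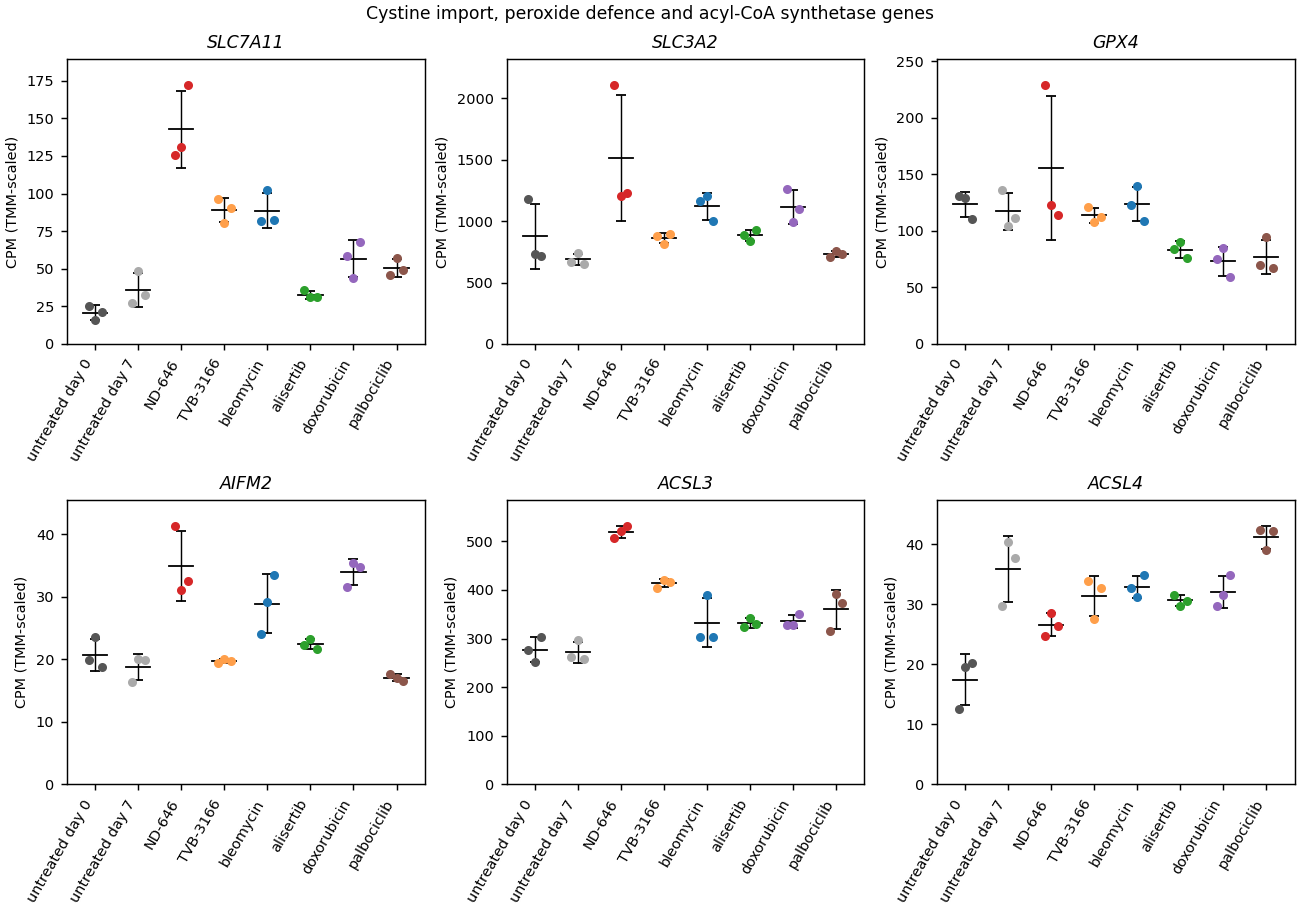
Levels of SLC7A11, SLC3A2, GPX4, AIFM2, ACSL3, and ACSL4 in CPM (linear axes from 0) in the 8 groups; points are libraries in the order of replicates 1 to 3, and bars the mean ± SD of 3. GPX4 reaches at most 94.39 CPM in the 9 alisertib, doxorubicin, and palbociclib libraries, and ACSL3 lies at or above 404.1 CPM in the 6 ND-646 and TVB-3166 libraries.

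Counted over the 10 genes, most TIS groups altered more than 5 of them against day 0, among large shares of all genes. ND-646 cells altered 7 of 10 at an adjusted p under 0.05 (37.9% of all genes tested) and 4 at the study's threshold, a fold-change of at least 2 with a raw p under 0.05 (20.7%). TVB-3166 cells altered 6 (55.1%) and 3 (17.6%), and bleomycin cells 7 (49.4%) and 3 (18.8%). Alisertib cells altered 4 (37.3%) and 1 (7.90%), doxorubicin cells 7 (48.4%) and 2 (12.9%), and palbociclib cells 7 (53.2%) and 2 (16.7%). Untreated day-7 cells altered ACSL4 alone by both rules (0.587% and 1.99%). At an adjusted p under 0.05 the shares in alisertib and TVB-3166 cells were thus near those of all genes. With 10 genes a share moves in large steps, and whether any group exceeded all genes was not tested. The median log2 change of the 10 genes was 0.76 in ND-646 cells and 0.34 in TVB-3166 cells, against 0.02 and -0.01 over all genes tested, and it was 0.42 in bleomycin cells and 0.16 in alisertib cells, against 0.00 and -0.01. All comparisons with day 0 share the same 3 day-0 libraries.

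**Figure D4:**
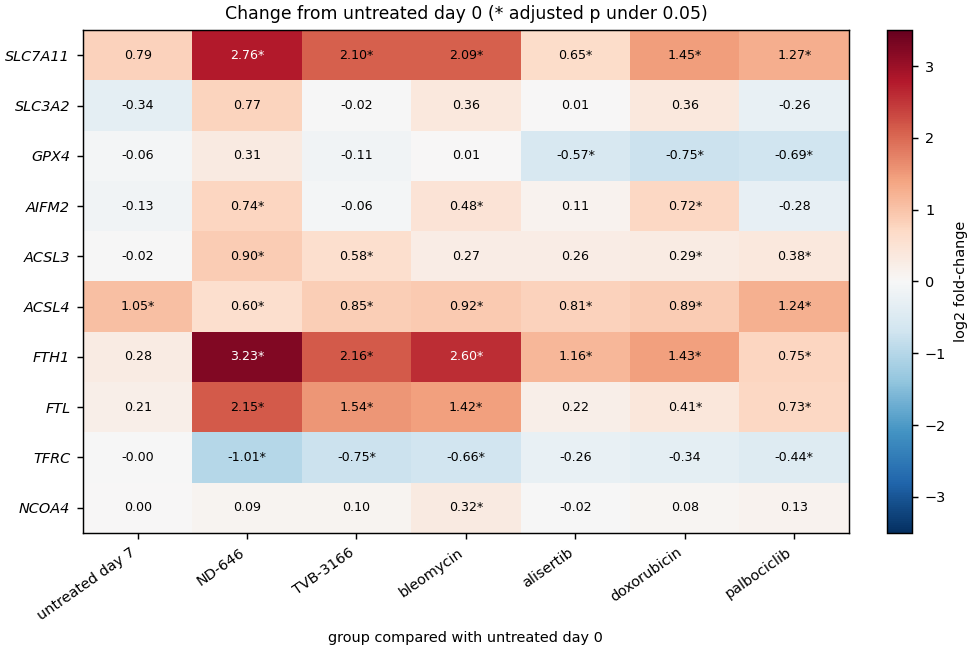
Log2 fold-changes of the 10 genes against untreated day 0 (colour and printed value; an asterisk marks an adjusted p under 0.05) in the untreated day-7 and 6 TIS groups. FTH1 and SLC7A11 carry an asterisk in all 6 TIS groups, and GPX4 is negative with an asterisk in alisertib, doxorubicin, and palbociclib cells.

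Untreated day-7 cells, the other reference, were collected on the same day, but the labels give the refeeding on day 3 for the drug groups alone, so drug and refeeding cannot be told apart in these labels. Against them 4 to 7 of the 10 genes were called in each TIS group. ND-646 altered 7 of the 10 genes (34.2% of all genes), TVB-3166 6 (51.5%), bleomycin 7 (45.6%), alisertib 4 (19.0%), doxorubicin 7 (43.4%), and palbociclib 5 (44.8%). FTH1 was higher by 2.97 ± 0.31 in ND-646 cells, 2.63 without ND-646 replicate 1, and by 0.91 ± 0.18 in alisertib cells. The palbociclib value for FTH1 of 0.50 ± 0.19 was not called (adjusted p = 0.0572). That palbociclib value ran from 0.24 without palbociclib replicate 2 to 0.70 without day-7 replicate 2, and it was called in 2 of 6 fits without 1 library. SLC7A11 was higher in all groups but alisertib, where it was -0.12 ± 0.17 (adjusted p = 0.663), with overlapping libraries in doxorubicin and palbociclib cells, and the largest difference was 1.98 ± 0.24 in ND-646 cells (adjusted p = 0.000572). The palbociclib call for SLC7A11 (0.50) was lost in 4 of 6 fits without 1 library, with 0.34 without day-7 replicate 1 and 0.77 without day-7 replicate 2, and in the fit of all 24 libraries (adjusted p = 0.0537). The doxorubicin call (0.68) was lost in 2 of 6 such fits and by DESeq2 (adjusted p = 0.0615). SLC3A2, which was even at day 7 (671.3, 741.3, and 653.3 CPM), was higher in 5 of 6 groups, by 1.12 ± 0.23 in ND-646 cells (adjusted p = 0.00685), 0.72 ± 0.11 in bleomycin and in doxorubicin cells, 0.38 ± 0.08 in alisertib cells, and 0.33 ± 0.09 in TVB-3166 cells. Without ND-646 replicate 1 the SLC3A2 value in ND-646 cells was 0.81. GPX4 was called lower in alisertib (-0.48 ± 0.10), doxorubicin (-0.66 ± 0.13), and palbociclib cells (-0.60 ± 0.13). Of these the alisertib call was lost without alisertib replicate 3 (-0.41, adjusted p = 0.06) and in the fit of all 24 libraries (adjusted p = 0.131). TFRC was lower in 5 of 6 groups, the exception in this fit being alisertib (adjusted p = 0.112). The doxorubicin call for TFRC was lost in 4 of 6 fits without 1 library and in the fit of all libraries (-0.34, adjusted p = 0.112). The bleomycin call was lost in 2 of 6, and its value was -0.43 without bleomycin replicate 2. Replicate numbers were taken to pair the libraries of bleomycin and alisertib with those of day 7, from the same data and not from the labels. In a fit blocked on them TFRC (-0.24, adjusted p = 0.0145) and AIFM2 (0.27, adjusted p = 0.0401) were also called in alisertib cells. ACSL3 (0.29, adjusted p = 0.0167) was also called in bleomycin cells in such a fit.

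ND-646 and TVB-3166, which block successive enzymes of fatty acid synthesis, were compared at the same dose and time. Of the 10 genes, 0 were called by edgeR at an adjusted p under 0.05 (0.717% of all genes). At a raw p under 0.05 the number was 6, but the share of all genes by that rule was not counted. DESeq2 and edgeR's fit of all 24 libraries each called the same 5 (SLC7A11, SLC3A2, ACSL3, AIFM2, and FTH1). In the latter fit adjusted p-values were 0.000469 for AIFM2, 0.009 for SLC3A2, and 0.0149 for FTH1. Calls over all genes rose as well, from 98 of 13662 in edgeR's main fit to 762 of 13662 with DESeq2. The fit of all 24 libraries called 1268 of 14078. FTH1 gave -1.08 ± 0.27 on the log2 scale for TVB-3166 over ND-646 (95% interval -1.60 to -0.56, adjusted p = 0.111), AIFM2 gave -0.81 ± 0.14 (-1.09 to -0.53, adjusted p = 0.0526), SLC3A2 -0.80 ± 0.23, and SLC7A11 -0.67 ± 0.16, with no overlap of the libraries for any of these. Without ND-646 replicate 1 the edgeR fit of ND-646 and TVB-3166 alone called 5 genes. These were FTH1 (-0.74, adjusted p = 0.00396), AIFM2 (-0.68, adjusted p = 0.00288), SLC7A11 (-0.76, adjusted p = 0.00405), SLC3A2 (-0.48, adjusted p = 0.00611), and ACSL3 (-0.34, adjusted p = 0.0205). Over all genes that fit called 1518 of 13792. In a fit blocked on replicate number, which was also taken to pair these libraries, AIFM2 alone was called (-0.80, adjusted p = 0.0423). GPX4 and NCOA4 overlapped, with intervals of the difference from -0.93 to 0.06 and from -0.23 to 0.23.

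ND-646 and TVB-3166 cells were also compared with the 4 other TIS groups together, without the untreated libraries. Of the 10 genes 8 were called (50.1% of all genes). FTH1 was higher in ND-646 and TVB-3166 cells by 1.23 ± 0.17 (adjusted p = 1.37e-05), FTL by 1.17 ± 0.13 (adjusted p = 1.07e-06), SLC7A11 by 1.08 ± 0.09 (adjusted p = 6.9e-08), and ACSL3 by 0.45 ± 0.06 (adjusted p = 1.47e-05), the last with no overlap of the 6 and 12 libraries. Without ND-646 replicate 1 the FTH1 value was 1.05 and the FTL value 0.99. GPX4 was higher by 0.61 ± 0.13 (adjusted p = 0.000766), by 0.41 without ND-646 replicate 1. TFRC was lower by 0.44 ± 0.11 (adjusted p = 0.00243) and ACSL4 by 0.23 ± 0.06 (adjusted p = 0.00497). SLC3A2 was higher by 0.28 ± 0.10 (adjusted p = 0.0348), a call that was lost in 8 of 18 fits without 1 library, with 0.11 without ND-646 replicate 1. NCOA4 (-0.02 ± 0.05) and AIFM2 (0.09 ± 0.08) were not called. Bleomycin libraries overlapped ND-646 or TVB-3166 libraries in 7 of the 8 called genes, all but ACSL3. Such overlap was not counted over all genes, so no share stands beside this count.

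Of 11 cystine and glutathione genes tested in ND-646 cells against day 0, 7 rose and 2 fell, with a median change of 1.00 against 0.02 over all genes, and 7 rose and 1 fell in TVB-3166 cells, where 37.9% and 55.1% of all genes were called. The glutamate-cysteine ligase subunits GCLC and GCLM, which like FBXL5 and LPCAT3 below were chosen after their values were seen, rose by 1.48 ± 0.15 and 1.81 ± 0.20 in ND-646 cells. CHAC1, which degrades glutathione, rose by 2.69 ± 0.18 in ND-646, 2.45 ± 0.30 in TVB-3166, and 2.19 ± 0.24 in bleomycin cells, whereas its alisertib value of 0.60 ± 0.23 was not called. GSS, the second enzyme of glutathione synthesis, fell by 1.02 ± 0.15 in ND-646 cells. In alisertib cells 4 of 12 rose, with a median of 0.22, against 37.3% of all genes called.

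Among 10 regulators, 7 rose in ND-646, TVB-3166, and palbociclib cells, 8 in bleomycin and doxorubicin cells, and 6 in alisertib cells against day 0, and KEAP1 fell in alisertib and palbociclib cells. Between 37.3% and 55.1% of all genes were called in these comparisons. ATF4, the amino acid stress factor that drives SLC7A11 and CHAC1 transcription, rose by 1.33 ± 0.12 in TVB-3166 and 1.75 ± 0.25 in ND-646 cells and by 0.44 to 0.74 in the other groups, but it also rose by 0.65 ± 0.12 in untreated day-7 cells (adjusted p = 0.0488). Against day 7 ATF4 was called only in ND-646 (1.11 ± 0.24) and TVB-3166 cells (0.69 ± 0.10), and these groups exceeded the 4 others by 0.99 ± 0.11 (adjusted p = 1.22e-06). DDIT3, a factor of the same stress response, rose from 4.23 CPM to 52.3 CPM in ND-646 cells (3.61 ± 0.23). NFE2L2, which drives ferritin and glutathione genes, was called in ND-646 (0.55 ± 0.14), bleomycin (0.51 ± 0.11), and doxorubicin cells (0.49 ± 0.08) and not in TVB-3166 cells (0.23 ± 0.10, adjusted p = 0.0841).

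The iron regulatory proteins did not share 1 pattern. IREB2 was called in 0 of 6 groups against day 0 by edgeR and had a raw p under 0.05 in 1, with values from -0.29 to 0.06. ACO1 rose in alisertib (1.08 ± 0.20), palbociclib (1.11 ± 0.21), doxorubicin (0.75 ± 0.21), and bleomycin cells (0.69 ± 0.23), was at 0.34 ± 0.21 in TVB-3166 and 0.09 ± 0.26 in ND-646 cells, and was lower by 0.68 ± 0.09 in those 2 groups than in the 4 others (adjusted p = 1.27e-05). FBXL5, the iron-sensing ligase subunit that targets IREB2, rose in all 6 groups, by 0.89 ± 0.10 in TVB-3166 and 0.93 ± 0.13 in ND-646 cells.

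**Figure D5:**
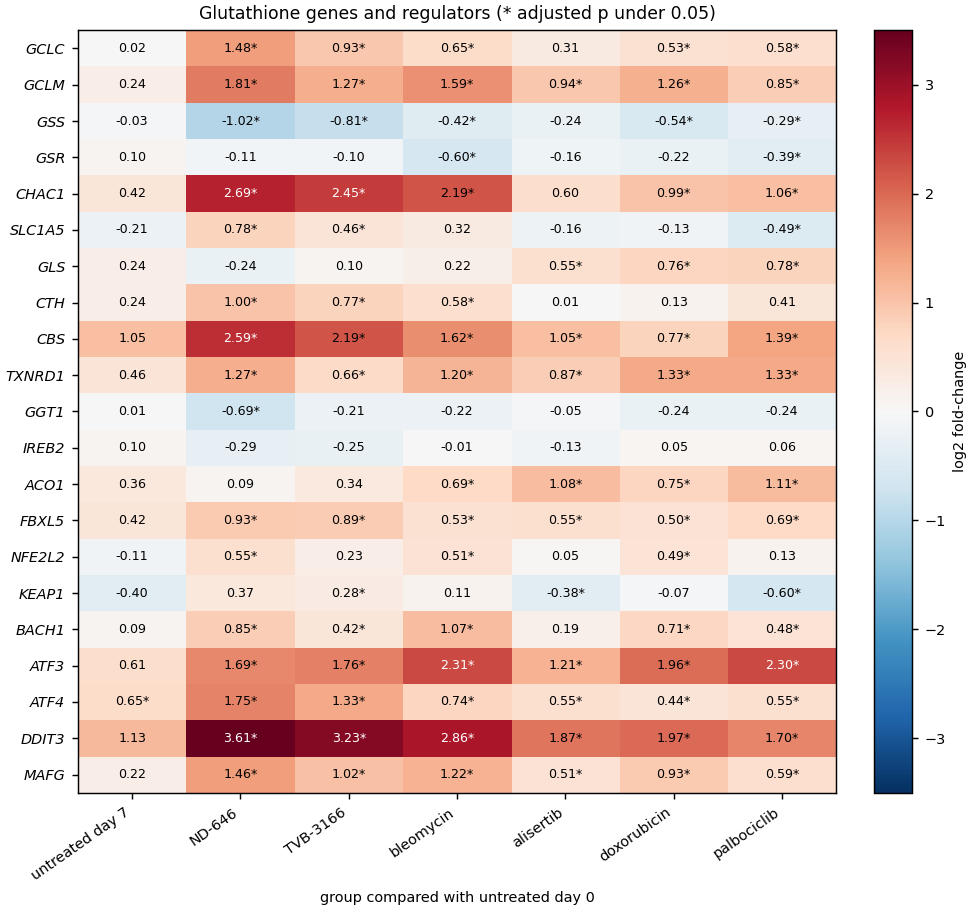
Log2 fold-changes of the cystine and glutathione genes tested in all 7 comparisons and of 10 regulators against untreated day 0 (colour and printed value; an asterisk marks an adjusted p under 0.05). GCLM and DDIT3 carry an asterisk in all 6 TIS groups, and IREB2 carries none.

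The other lists held called genes of both directions. Of 12 tested genes of iron uptake, transport, and export, 3 rose and 3 fell in ND-646 cells and 2 rose and 6 fell in bleomycin cells, against 37.9% and 49.4% of all genes called. STEAP3, the endosomal ferric reductase that works with TFRC, fell in all 6 groups, by 0.99 ± 0.15 in ND-646 and 0.98 ± 0.09 in palbociclib cells, and SLC39A8, a metal importer, fell by 1.47 ± 0.28 in TVB-3166 and 2.04 ± 0.46 in ND-646 cells. SLC25A37, a mitochondrial iron importer, rose in all 6 groups, by 1.28 ± 0.26 in bleomycin and 0.39 ± 0.13 in alisertib cells. Of 11 genes of haem, iron-sulfur clusters, and mitochondrial iron, 1 rose and 6 fell in TVB-3166 cells, against 55.1% of all genes called, and the list's median was negative in all 6 TIS groups, from -0.49 in TVB-3166 to -0.15 in alisertib cells. HMOX1, which releases iron from haem, rose in 5 groups, by 2.46 ± 0.28 in doxorubicin and 2.24 ± 0.31 in bleomycin cells, and was at 0.26 ± 0.29 in palbociclib cells (adjusted p = 0.466).

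Of 15 tested genes of lipid substrates and peroxidation, 4 rose and 2 fell in ND-646 and 6 rose and 4 fell in bleomycin cells, against 37.9% and 49.4% of all genes called, with medians from 0.00 in alisertib to 0.21 in doxorubicin cells. ACSL5, a paralogue of ACSL3 and ACSL4, rose in all 6 groups, by 2.61 ± 0.18 in ND-646 and at least 1.98 ± 0.13 in the others, and its day-7 value was 1.26 ± 0.25 (adjusted p = 0.0526). LPCAT3, which places polyunsaturated acyl chains into phospholipids, rose by 1.33 ± 0.12 in TVB-3166 and 1.47 ± 0.19 in ND-646 cells and by 0.36 to 0.55 in bleomycin, alisertib, and palbociclib cells. MBOAT1, a related acyltransferase, fell in all groups but doxorubicin, by 1.24 in alisertib cells. Of 14 tested suppressors other than the 10 genes, 3 rose and 4 fell in ND-646, 3 rose and 7 fell in TVB-3166, and 4 rose and 7 fell in bleomycin cells, against 37.9%, 55.1%, and 49.4% of all genes called. Their median was negative in all 6 TIS groups, from -0.27 in TVB-3166 to -0.07 in alisertib cells. GPX2, a selenium peroxidase related to GPX4, rose by 1.78 ± 0.19 in ND-646 cells, and COQ2, an enzyme of coenzyme Q synthesis, fell by 1.29 ± 0.24. Of 5 marker genes of ferroptosis CHAC1 and SAT1 had values, and the others were not found by symbol among the genes listed. SAT1, a polyamine acetyltransferase, rose in all 6 groups, from 19.7 CPM at day 0 to 219 CPM in ND-646 cells (3.46 ± 0.36).

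RefSeq promoter sequences on GRCh38.p14 around the start site could be matched for 8 of the 10 genes, all but FTH1 and SLC7A11. TGACNNNGC, the core of the antioxidant response element bound by the NFE2L2 protein, occurred on either strand in NCOA4, AIFM2, and SLC3A2, and in 13.3% of 35116 promoters of this length. TGATGCAA, an element of the ATF4 kind, occurred in 0 of the 8 and in 0.866% of all.

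Since CPM is a share of each library's RNA, a change in the RNA content of a cell and a change in these transcripts alone cannot be told apart. Scaling by library totals moved the median of all genes to between -0.20 and 0.13, and no called change of the 10 genes reversed its direction under any scaling.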

How the data were processed

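RNA from 24 SKBR3 libraries was sequenced after TruSeq Stranded mRNA preparation per the labels (the study's methods name the Total RNA kit of the same series). The authors aligned reads to GRCh37 with HISAT2 and assembled them with StringTie, and the deposited table holds whole-number read counts per gene symbol, with no normalization and no count below 1. Strand handling in counting is not given in the sources used here.

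Here, counts were tested with edgeR 4.0.16 (R 4.3.3) by the quasi-likelihood test after filterByExpr and TMM scaling, fitting the groups compared and adjusting p-values (Benjamini-Hochberg) over all genes tested. SE is the absolute log2 fold-change over the square root of F, and 95% intervals are 1.96 SE. DESeq2 1.42.0, other scalings and filters, 1 fit of all libraries, a replicate block, and fits without 1 library were alternatives. RPKM is CPM per kilobase of the GENCODE canonical transcript. Scripts were tested on counts simulated after ND-646 against day 0. There edgeR called 66.3% of 101 log2 changes of size 1 and 92.9% of 99 of size 2, with 6 false calls. DESeq2 called 76.2% and 93.9%, with 22 false calls. Smaller changes were not simulated, and a change that was not called is not thereby shown to be absent. Neighbouring groups in a gene's order of means were compared in the fit of all 24 libraries.

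Groups came from the labels. The replicate number was taken to pair libraries where all 3 same-numbered pairs deviated together (r over 0.1). This held for bleomycin against day 7 (r from 0.107 to 0.142), alisertib against day 7 (0.105 to 0.218), and TVB-3166 against ND-646 (0.213 to 0.38). Doxorubicin against day 7 fell just short (0.0975 to 0.21). The labels give no pairing, and the rule used the same data as the tests. The 10 genes and all lists were chosen with earlier results of these data known. Other genes named from the lists are those with the largest called rise or fall, and the regulators ATF4, NFE2L2, IREB2, and ACO1. GCLC, GCLM, FBXL5, and LPCAT3 were added after their values were seen.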

Additional observations from a re-analysis of the deposited data

How the results depend on the processing

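Of 1020 gene values refitted without 1 library, 85 changed their call, and of 1215 under the other alternatives 114 did. SLC3A2 in TVB-3166 cells against day 0, not called at -0.02, turned its direction and was called at 0.26 without day-0 replicate 1, the top of its range from -0.14 to 0.26. The number of the 10 genes called, without 1 library, ranged against day 0 from 6 to 7 for ND-646 and TVB-3166, 4 to 7 for bleomycin and alisertib, 5 to 8 for doxorubicin, 5 to 7 for palbociclib, and 0 to 1 for day 7. Over all genes the calls ranged from 3460 to 7573 for ND-646, 6186 to 7504 for TVB-3166, and 5463 to 6656 for bleomycin. They ranged from 3128 to 5205 for alisertib, 5108 to 6758 for doxorubicin, 5923 to 7110 for palbociclib, and 0 to 94 for day 7. Against day 7 the number of the 10 genes ranged from 7 to 8 for ND-646, 6 to 7 for TVB-3166, 5 to 8 for bleomycin, 2 to 4 for alisertib, 4 to 8 for doxorubicin, and 4 to 6 for palbociclib. The calls over all genes ranged from 2714 to 7618 for ND-646, 5744 to 6947 for TVB-3166, and 4320 to 6404 for bleomycin. They ranged from 1062 to 2800 for alisertib, 4442 to 6080 for doxorubicin, and 4878 to 6092 for palbociclib. Among the 10 genes the number ranged from 0 to 5 for TVB-3166 against ND-646 and from 7 to 8 for both against the other 4 groups. Over all genes these ranges were 0 to 1518 and 6259 to 7166. A fold-change of at least 2 with a raw p under 0.05 keeps fewer genes by construction. By that rule the counts of the 10 genes against day 0 were 4 for ND-646, 3 for TVB-3166, 3 for bleomycin, 1 for alisertib, 2 for doxorubicin, and 2 for palbociclib. The shares of all genes are given above. Against day 7 the counts of the 10 genes were 4, 3, 3, 0, 1, and 0 in the same order, with 1 for TVB-3166 against ND-646 and 3 for both against the other 4 groups. Over all genes the rule kept 2379 of 13704 for ND-646, 1839 of 13748 for TVB-3166, and 1952 of 13802 for bleomycin. It kept 451 of 13795 for alisertib, 1214 of 13850 for doxorubicin, and 1547 of 13788 for palbociclib. TVB-3166 against ND-646 gave 429 of 13662, and both against the other 4 groups gave 1003 of 14052. Among the 10 genes, day 7 against day 0 gave 2 calls with DESeq2, 2 in the fit of all 24 libraries, 2 with the replicate block, and 0 with library totals or no filter. Over all genes the main fit called 80, DESeq2 1120, the fit of all 24 libraries 441, and the replicate block 1263. Library totals gave 32 calls over all genes and no filter 0. Alisertib against day 7 gave 1 call among the 10 genes in the fit of all libraries, which called 1141 over all genes against 2627 in the main fit. TVB-3166 against ND-646 gave 5 calls among the 10 genes with DESeq2, 5 in the fit of all libraries, and 1 with the replicate block. Over all genes these fits called 762, 1268, and 310, against 98 in the main fit. The causes were not tested. The replicate block added 14 calls over all comparisons and removed 0. Most of these added calls were in comparisons whose replicate numbers were not taken to pair the libraries. With 3 libraries a group, calls near the threshold depend on single libraries.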
